A study of Homo sapiens with 3 samples.

Results

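The SMAD target and TGF-beta feedback genes described here are ID1, ID2, ID3, SMAD6, SMAD7, SKIL, TGFBI, TGFBR1 and TGFBR2. Every probe set paired with exactly 1 of these symbols was taken, which gave 26 probe sets for the 9 genes, out of 44988 probe sets with 1 symbol, 49395 probe sets in all and 18132 genes. The values are log2 intensities from Affymetrix 3' expression arrays of KYSE150 cells, an established line of human oesophageal squamous carcinoma kept in serum-containing medium. The control cells received the vector, the LOXL2 WT cells received pcDNA3.1 with wild-type LOXL2, and the LOXL2 delta72 cells received pcDNA3.1 with the form of that name, whose difference from wild type the labels do not describe. RNA was taken 48 h after transfection in all 3 groups. The labels name no added TGF-beta or BMP ligand in any group, and they give no share of transfected cells. LOXL2 belongs to the lysyl oxidases, enzymes best known for cross-linking collagen and elastin outside the cell. With 1 array per condition there was no replicate spread and no test was made, so "higher" and "lower" describe these arrays.

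Ligands of the TGF-beta family bind paired type I and type II serine/threonine kinase receptors, of which TGFBR1 and TGFBR2 are the pair for TGF-beta itself. The receptors phosphorylate SMAD proteins, SMAD2 and SMAD3 on the TGF-beta and activin side and SMAD1, SMAD5 and SMAD9 on the BMP side, which enter the nucleus with SMAD4 and act on target genes. SMAD6, SMAD7 and SKIL are targets that feed back on the pathway, and in squamous epithelia TGF-beta is best known for restraining cell division.

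Promoters of 4 members are printed because these genes behaved differently on the arrays: ID1 was lower on both LOXL2 arrays, SKIL was higher, and ID3 and SMAD6 moved little. Each is the 250 bases before the annotated RefSeq start, 5' to 3' on the gene's strand, build GRCh38.p14. Capitals mark CAGAC (or GTCTG on the other strand), a short SMAD box, GTCTAGAC, the palindromic SMAD element, and GGCGCC, a GC-rich SMAD site; the searched motifs were settled with the sequences in view. ID1 lies at chr20:31605039-31605288 on the plus strand, ID3 at chr1:23559502-23559751 on the minus strand, SKIL at chr3:170357465-170357714 on the plus strand and SMAD6 at chr15:66701986-66702235 on the plus strand.
ID1: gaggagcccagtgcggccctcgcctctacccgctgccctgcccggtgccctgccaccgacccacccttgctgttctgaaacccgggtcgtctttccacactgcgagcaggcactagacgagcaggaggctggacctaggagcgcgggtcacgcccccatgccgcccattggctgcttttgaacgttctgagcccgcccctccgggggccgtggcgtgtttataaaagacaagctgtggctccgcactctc
ID3: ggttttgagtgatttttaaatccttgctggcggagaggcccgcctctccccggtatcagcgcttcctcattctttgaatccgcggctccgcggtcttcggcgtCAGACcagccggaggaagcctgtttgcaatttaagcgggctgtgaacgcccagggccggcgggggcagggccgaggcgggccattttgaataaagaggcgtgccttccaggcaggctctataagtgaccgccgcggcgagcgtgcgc
SKIL: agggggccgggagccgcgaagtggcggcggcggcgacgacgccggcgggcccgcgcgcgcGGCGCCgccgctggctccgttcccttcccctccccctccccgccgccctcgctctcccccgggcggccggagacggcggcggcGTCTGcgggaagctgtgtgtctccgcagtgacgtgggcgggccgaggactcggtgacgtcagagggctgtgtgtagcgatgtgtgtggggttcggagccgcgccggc
SMAD6: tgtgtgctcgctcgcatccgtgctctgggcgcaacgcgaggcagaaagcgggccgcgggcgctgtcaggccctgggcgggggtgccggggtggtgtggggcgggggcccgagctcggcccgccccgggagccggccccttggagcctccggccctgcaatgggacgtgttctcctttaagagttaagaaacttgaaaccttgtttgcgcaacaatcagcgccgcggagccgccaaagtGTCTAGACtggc

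The ID1 window held 0 matches to the 3 motifs, as did that of ID2, which is not printed. The ID3 window held CAGAC once, 147 bases before the start. The SKIL window held it once in the reverse orientation, 107 bases before the start, together with GGCGCC at 190 bases. The SMAD6 window held GTCTAGAC, 12 bases before the start. All 9 members had a window in the promoter table, 19 windows in all, 8 of them for alternative, partly overlapping starts of TGFBR1. CAGAC was found in 8 of the 19 (42.1%), against 38.0% of all 35116 windows of this length. Those 8 belonged to 4 members, ID3, SMAD7, SKIL and TGFBR1. GTCTAGAC was found in 1 of the 19, against 0.182% of all windows, and GGCGCC in 3 (15.8%), against 16.4%. A match describes letters in a window and is not evidence of binding.

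LOXL2 itself was checked first. On its brightest probe set it read log2 7.46 on the control array, 14.05 with WT and 14.06 with delta72, and of the 3 other probe sets 2 were higher and 1, at 8.81 on the control array, was lower on both. Of 5 markers of squamous epithelium, all above the filter on dim genes that is given below, the summed level was 13.43, 13.40 and 13.29 on the log2 scale on control, WT and delta72. The E-cadherin gene CDH1 and SFN read between 11.54 and 11.95 on all 3 arrays. The keratin gene KRT5 read 11.62, 11.52 and 11.27 and KRT14 read 7.76, 7.08 and 7.10, so KRT5 was 0.35 lower with delta72 and KRT14 lower with both forms, while DSG3 was 0.34 higher with WT. Of the markers of other cell types, 1 of 6 for fibroblasts, 3 of 5 for endothelium, 2 of 5 for leukocytes and 4 of 4 for smooth muscle passed that filter. Summed and put on the log2 scale, they read 7.33, 7.33 and 7.26 for fibroblasts on control, WT and delta72, 7.70, 7.71 and 7.68 for endothelium, 9.17, 8.70 and 8.89 for leukocytes, and 8.58, 8.39 and 8.46 for smooth muscle. The leukocyte sum was mostly CD68, a lysosomal gene, at 8.97, 8.44 and 8.65, while the T-cell gene CD3E read 5.55, 5.34 and 5.45 and PTPRC, a gene of all leukocytes, at most 3.08. Of the endothelial genes PECAM1, VWF and KDR read between 5.50 and 6.05, and CDH5 and TEK were below the filter. Background probe sets differed by up to 0.285 between WT and control, 0.173 between delta72 and control and 0.152 between the LOXL2 arrays, and hybridisation spikes by up to 0.196, 0.315 and 0.196. The 3' minus 5' difference of the ACTB control probe sets, a sign of RNA integrity, was 1.26 on the control array, 1.46 with WT and 1.32 with delta72. For the GAPDH control probe sets it was -0.0058, 0.0029 and 0.002 in that order, close to level. The part of these markers and technical differences in the results was not tested.

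On these arrays the members split in both directions by their brightest probe sets, with SKIL and TGFBR1 higher and ID1 and SMAD7 lower on both LOXL2 arrays. The 2 dimmer probe sets of SMAD7, both under the filter given next, were higher than control on both. Each gene is read from the probe set with the highest mean, and a gene was kept when that mean was at or above log2 5.27, a filter that 40% of probe sets other than controls lie under. That left 12232 genes, among them 8 of the 9 members; ID2 lay below the filter. The lower threshold was a log2 difference of 0.32, which is 25% higher or 20% lower. With WT, 2 of the 8 were past it on the higher side (SKIL, TGFBR1) and 2 on the lower side (ID1, SMAD7), where 9.92% and 7.12% of all genes were. At 1.5-fold, 1 was higher (SKIL) and 1 lower (ID1), against 1.85% and 0.867% of all genes. With delta72, 3 were past 0.32 on the higher side (SKIL, TGFBR1, TGFBI) and 2 on the lower side (ID1, SMAD7), against 7.52% and 4.72%, and at 1.5-fold again SKIL alone was higher and ID1 alone lower, against 1.28% and 0.499%. The median difference of the 8 was 0.06 with WT and 0.04 with delta72, beside -0.0094 and 0.00 over all genes, while their median absolute difference was 0.28 and 0.34 beside 0.15 and 0.12. So the members were not shifted in one direction but included several genes in the outer part of the distribution on either side. The members were chosen with earlier results of these data known, so their counts beside the shares of all genes only describe these arrays.

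The background shares depend on the scale between the arrays. As deposited, 1213 genes were past 0.32 on the higher side and 871 on the lower side with WT, and 920 and 577 with delta72. After the 3 arrays were given equal medians over these genes, 957 and 1224 were past it with WT and 725 and 769 with delta72, and at 1.5-fold they went from 226 and 106 to 169 and 139 with WT and from 157 and 61 to 123 and 77 with delta72. Both differences from control use the same control array, so a gene that moved with both forms was not seen in 2 independent comparisons.

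**Figure D1:**
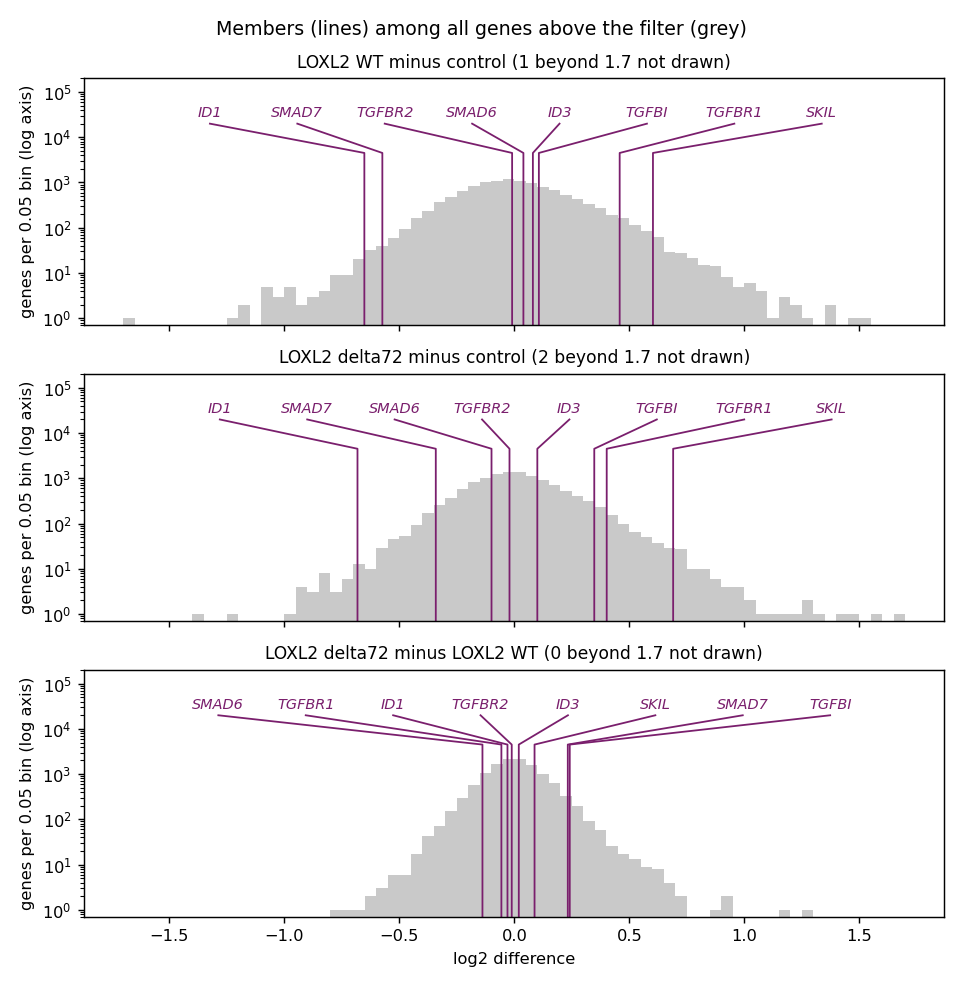
Log2 differences of the 8 members above the filter (purple lines) among all 12232 genes (grey histogram, log axis), with WT less control in the upper panel, delta72 less control in the middle and delta72 less WT in the lower one. ID1 and SKIL lie in the outer parts of the upper and middle panels, at -0.65 and 0.60 with WT and at -0.68 and 0.69 with delta72, while in the lower panel all 8 lie between -0.14 and 0.24.

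The ID genes encode helix-loop-helix proteins without a DNA-binding region, which tie up basic helix-loop-helix transcription factors and keep cells from differentiating; they are classical targets of BMP signalling. The 3 genes did not move together. ID1 read 9.90 on the control array, 9.24 with WT and 9.21 with delta72 on its brightest probe set (11716196_x_at). It was thus high in the control and low on both LOXL2 arrays, which read nearly alike. The difference was -0.65 with WT (1.57-fold, SD 0.10 over 3 probe sets) and -0.68 with delta72 (1.60-fold, SD 0.09). Its other probe sets read 8.95, 8.24 and 8.18, and 9.02, 8.18 and 8.17, on control, WT and delta72 in that order. Both differed by more than the brightest one, at -0.71 and -0.84 with WT and -0.78 and -0.85 with delta72. Of the 12232 genes, 63 were lower than ID1 with WT and 29 with delta72. In arrays of bulk RNA, fewer expressing cells and less RNA per cell cannot be told apart.

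ID3 moved little. It read 8.86, 8.94 and 8.96 on control, WT and delta72, and its other probe sets differed from control by between -0.06 and 0.06. The brightest gave 0.08 with WT (SD 0.08 over 3 probe sets) and 0.10 with delta72 (SD 0.08), so its differences were about as large as the disagreement between its probe sets. ID2 went the other way from ID1 but lay below the filter. Its probe sets read 4.10 and 3.98 on the control array, 4.66 and 4.49 with WT and 4.55 and 4.59 with delta72. Both were higher on both LOXL2 arrays, by 0.55 and 0.51 with WT and by 0.45 and 0.62 with delta72. ID2 is not counted among the calls above.

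**Figure D2:**
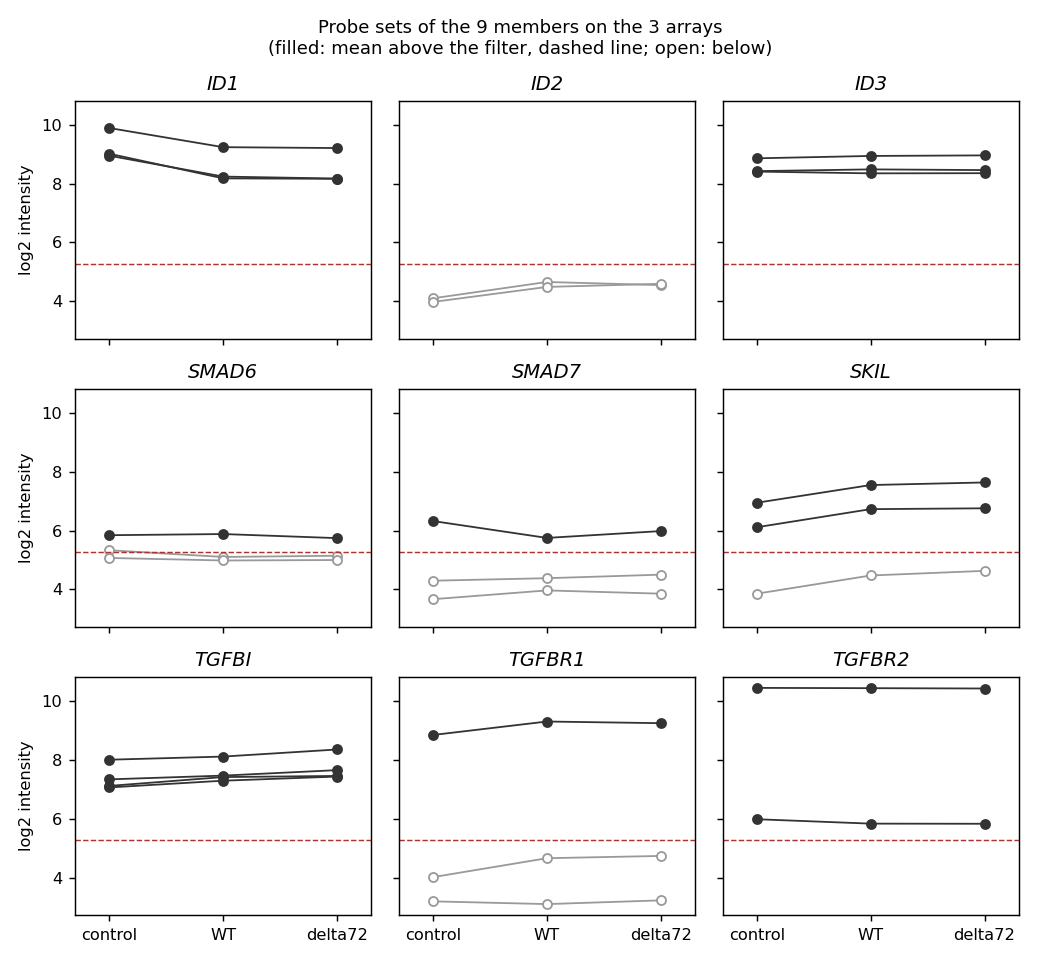
Log2 intensity of each of the 26 member probe sets on the control, LOXL2 WT and LOXL2 delta72 arrays, 1 panel per gene and 1 line per probe set, with the filter at 5.27 as a dashed line and 9 probe sets below it drawn open. All 3 lines of ID1 step down and all 3 of SKIL step up from control to the LOXL2 arrays, while TGFBR2 stays level at 10.45, 10.44 and 10.43 on its brighter probe set.

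Among the feedback inhibitors, SKIL showed the clearest difference. SKIL encodes SnoN, a corepressor that binds SMAD complexes and holds their targets down, and its own transcription is raised by TGF-beta. It read 6.95 on the control array, 7.55 with WT and 7.64 with delta72 on its brightest probe set (11741553_a_at). Both LOXL2 arrays lay above control and close to each other. The difference was 0.60 with WT (1.52-fold, SD 0.0091 over 3 probe sets) and 0.69 with delta72 (1.61-fold, SD 0.07). The second probe set read 6.12, 6.73 and 6.76 and the third, below the filter, 3.85, 4.47 and 4.63 on control, WT and delta72. All 3 therefore gave the same direction and nearly the same size, and 200 genes were higher than SKIL with WT and 81 with delta72. The 1.5-fold call with WT was marginal: with a common median the difference was 0.56 and with quantile normalization 0.584, just under 1.5-fold.

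SMAD7 and SMAD6 are the inhibitory SMADs. SMAD7 blocks TGF-beta and BMP receptors and recruits ubiquitin ligases to them, and SMAD6 acts mainly on the BMP side. SMAD7 read 6.33 on the control array, 5.75 with WT and 5.98 with delta72 on the 1 probe set above the filter (11725514_a_at). The control array was highest and the WT array lowest, with differences of -0.57 (1.49-fold) and -0.34 (1.27-fold). The other probe sets went the other way, at 4.30, 4.38 and 4.50 and at 3.67, 3.97 and 3.86 on control, WT and delta72. The SD over the 3 differences was 0.45 with WT and 0.31 with delta72. The median level over the 3, taken on each array, differed from control by 0.08 and 0.21. The direction for SMAD7 thus rests on 1 probe set. With a common median that probe set passed 1.5-fold with WT, at -0.62, and after lowess correction it was under the 0.32 threshold with delta72, at -0.31.

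SMAD6 read 5.84, 5.88 and 5.75 on control, WT and delta72. The brightest probe set differed from control by 0.04 with WT and by -0.10 with delta72. Those below the filter gave -0.23 and -0.09 with WT and -0.19 and -0.07 with delta72 (SD over the 3 probe sets 0.13 and 0.06). No probe set of SMAD6 reached 0.32 in either direction.

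The receptors differed from each other. TGFBR1, the type I receptor that phosphorylates SMAD2 and SMAD3, read 8.85 on the control array, 9.31 with WT and 9.25 with delta72 on its brightest probe set (11758014_s_at). Both LOXL2 arrays lay above control, by 0.46 (1.37-fold) and 0.40 (1.32-fold). A second probe set read 4.01, 4.66 and 4.74, a larger difference at low brightness, and the third 3.19, 3.10 and 3.22, close to level. The SD over the 3 was 0.38 with WT and 0.34 with delta72, with 2 of 3 higher than control with WT and 3 of 3 with delta72. TGFBR2, the type II receptor that binds the ligand first, read 10.45, 10.44 and 10.43 on its brighter probe set and 5.98, 5.83 and 5.83 on the dimmer one. Its differences were -0.0097 and -0.15 with WT and -0.02 and -0.15 with delta72. The arrays thus gave a higher type I receptor transcript, on its brightest probe set, beside a level type II receptor transcript.

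TGFBI encodes a secreted, integrin-binding matrix protein named for its induction by TGF-beta. Its probe sets read 8.01, 8.12 and 8.36 (the brightest, 11734550_x_at), 7.34, 7.47 and 7.65, 7.12, 7.42 and 7.46, and 7.07, 7.30 and 7.44 on control, WT and delta72. In all 4 the control array was lowest and the delta72 array highest. With WT the brightest differed by 0.11 (SD 0.09 over 4 probe sets) and the others by 0.13 to 0.30, all under 0.32. With delta72 the 4 differences lay between 0.31 and 0.37 (SD 0.02), around that threshold, with 0.35 on the brightest probe set. The delta72 call was lost with a common median, at 0.315, after lowess correction, at 0.321, and without _s_at and _x_at probe sets, at 0.314, against an unrounded threshold of 0.322.

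**Figure D3:**
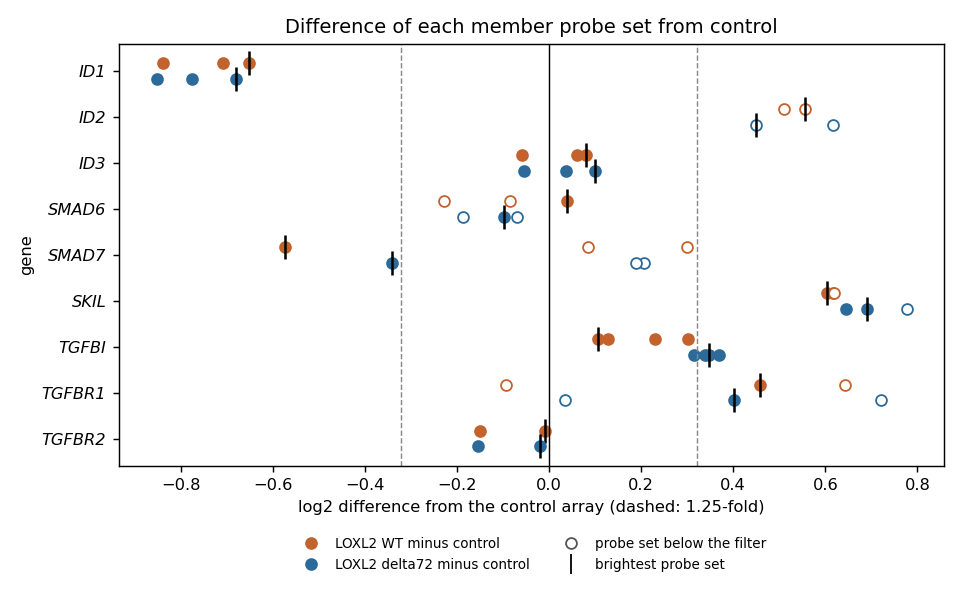
Log2 difference from the control array of every member probe set with LOXL2 WT (orange) and LOXL2 delta72 (blue); open points lie below the filter, the black tick marks the brightest probe set and dashed lines mark 0.32 in either direction. The points of ID1 lie to the left of the lower line and those of SKIL to the right of the upper one with both forms, while the points of SMAD7 and TGFBR1 are spread, with SDs over probe sets of 0.45 and 0.38 with WT.

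Across the 9 members, every probe set was higher on both LOXL2 arrays for 3 genes (ID2, SKIL and TGFBI) and lower for 2 (ID1 and TGFBR2). Of these, ID2 lay below the filter. The brighter probe set of TGFBR2 was close to level, at -0.0097 with WT and -0.02 with delta72. How many of all genes agree in this way was not computed, and both comparisons share the control array, so these counts only describe the members. The other 4 had probe sets on both sides in at least 1 comparison. Agreement between probe sets describes the same RNA read at several places and carries no information on the spread between cultures.

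Compared with each other, without the control array, the LOXL2 forms differed little in the members, as over all genes: the median absolute difference was 0.07 for the 8 members and 0.08 for all genes. None of the 8 members reached 0.32 between delta72 and WT in either direction, where 1.55% of all genes were higher and 0.981% lower; at 1.5-fold 0 members and 0.18% and 0.0409% of all genes were. After lowess correction the genes at 1.5-fold numbered 17 higher and 8 lower in place of 22 and 5. The largest member differences were those of TGFBI, 0.24 higher with delta72 (SD 0.09 over 4 probe sets, all higher), and SMAD7, 0.23 higher on its brightest probe set (SD 0.18 over 3, of which 1 was lower). ID1 differed by -0.03 (SD 0.03), SKIL by 0.09 (SD 0.06) and TGFBR1 by -0.06 (SD 0.10). Of all genes, 480 were further on the higher side than TGFBI and 531 than SMAD7. The median of the 8 was 0.0040, beside 0.0013 over all genes.

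The genes whose pattern was most like that of each moving member were found by Euclidean distance over 2 values, the WT and the delta72 difference from control, which come from 3 arrays and share 1. Nearest to ID1 were MSMO1, ST6GALNAC2 and KRT14, at distances of 0.03 in log2 units. KRT14, for instance, was at -0.67 and -0.66. Nearest to SKIL were ZNF786, ARL14 and H2AC6, at 0.0043 to 0.01, and nearest to SMAD7 were ANKRD10, TPBG and ZNF341, at 0.01 to 0.02. TRIB3, INPPL1 and CNTN2 lay nearest to TGFBI and PSEN2, SPAG1 and PPFIA1 nearest to TGFBR1.

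The wider pathway was read from a list of 60 further genes, of which 47 passed the filter. With WT, 5 of the 47 were past 0.32 on the higher side (10.6%) and 4 on the lower side (8.51%), beside the 9.92% and 7.12% of all genes. With delta72, 7 were higher (14.9%) and 2 lower (4.26%), beside 7.52% and 4.72%. Between both forms 2 were higher with delta72 (4.26%) and 0 lower, beside 1.55% and 0.981% of all genes. The median of the 47 was -0.08 with WT, -0.02 with delta72 and 0.03 between the forms. Over all genes those medians were -0.0094, 0.00 and 0.0013. With WT 29 of the 47 were lower and 18 higher by any amount, beside 51.7% and 48% of all genes. With delta72 25 were lower and 22 higher, beside 49.8% and 49.7%. No test was made of these splits.

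No ligand of the 7 above the filter reached 0.32 with WT, and 2 did with delta72, both BMPs and both higher. BMP2 read 5.38, 5.66 and 5.78 on control, WT and delta72, just above the filter, and BMP7 read 6.75, 6.89 and 7.11. The 2 probe sets of BMP7 disagreed in size with delta72, at 0.36 on the brighter one, with an SD of 0.22 and a median of 0.20. TGFB1 read 7.41, 7.11 and 7.38, lower with WT by 0.30 and level with delta72 by this probe set, its only one. TGFB3, which lay below the filter at 5.13, 4.53 and 4.53, had the largest difference of the listed ligands, and its 3 probe sets were lower on both arrays. Among 7 genes for latency and antagonism, FSTL3, a secreted binder of activin, was 0.39 higher with delta72 (SD 0.44 over 3 probe sets, of which 2 were higher).

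Of the 7 other receptors, BMPR2 and ACVR1 were at least 0.32 higher with WT and BMPR2 with delta72, and 0 were lower. BMPR2, the type II receptor for BMPs, read 6.48, 6.98 and 6.94, which is 0.50 above control with WT (SD 0.12 over 3 probe sets) and 0.46 with delta72 (SD 0.22). ACVR1, a type I receptor, read 8.33, 8.75 and 8.63, with an SD of 0.36 over 4 probe sets with WT. Among the 5 signalling SMADs above the filter, SMAD2 was 0.48 and 0.41 higher on its brightest probe set with WT and delta72. Of its 7 probe sets, 6 were higher than control with each form, but the median level over the 7 differed by only 0.08 and 0.04. SMAD1, which carries BMP signals, was 0.13 lower with WT and 0.36 lower with delta72, with its 2 probe sets close together (SD 0.01 in both). SMAD3 read 10.52, 10.21 and 10.38, lowest with WT.

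Among 9 inhibitors and corepressors above the filter, NEDD4L, a ubiquitin ligase that acts on activated SMAD2 and SMAD3, read 10.97, 10.52 and 10.85. It was 0.45 lower with WT and 0.33 higher with delta72 than with WT (SD 0.15 over 7 probe sets in both), with 0 of 7 probe sets higher than control on either array. Between the forms 6 of the 7 were higher with delta72, while the median level over the 7 differed by 0.04. The call between the forms was read from the brightest probe set. BAMBI, a pseudoreceptor that dampens the pathway and is itself a target, lay below the filter on average but had the largest difference of the list: its 1 probe set read 4.62, 5.45 and 5.63, or 0.82 and 1.01 above control.

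Of the 12 other textbook targets above the filter, CDKN2B and SNAI2 were at least 0.32 higher on both LOXL2 arrays, and JUNB was lower on both. CDKN2B, a cyclin-dependent kinase inhibitor induced by TGF-beta, read 6.92, 7.51 and 7.42, though its 3 probe sets disagreed (SD 0.46 with WT, 2 of 3 higher). SNAI2, a transcription factor of epithelial plasticity, was 0.60 and 0.54 higher on 1 probe set. JUNB, an AP-1 subunit, read 8.37, 7.70 and 7.94. BHLHE40, at 8.76, 8.12 and 8.59, and the matricellular gene CCN2, at 8.57, 8.23 and 8.49, were lower with WT and within 0.32 of control with delta72. CDKN1A, the p21 gene, was 0.10 higher with WT and 0.30 with delta72. ITGB6 and BMPR1A were not analysed here.

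**Figure D4:**
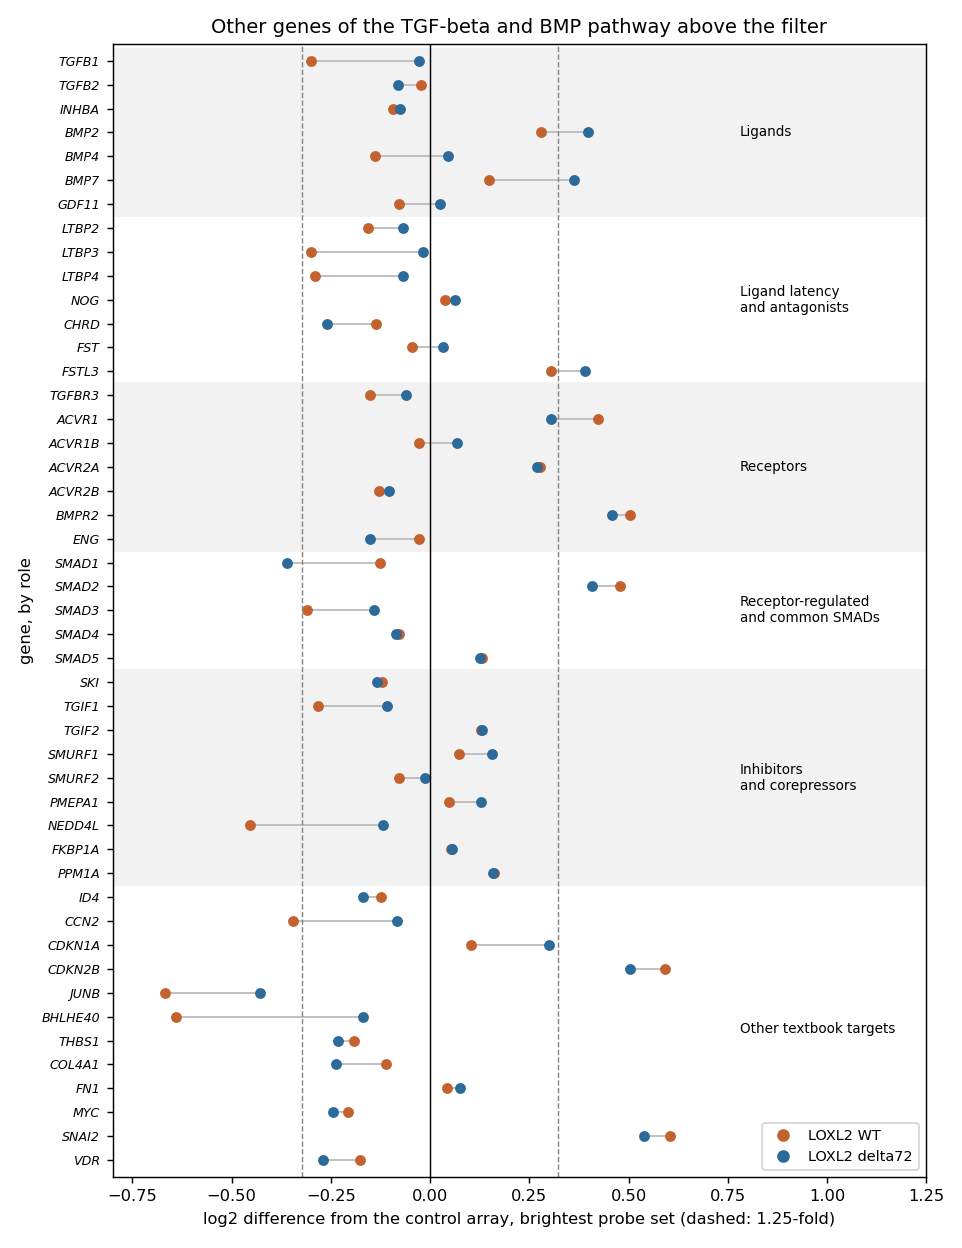
Log2 difference from control of the brightest probe set of 47 other pathway genes above the filter, by role, with LOXL2 WT in orange and LOXL2 delta72 in blue joined by a grey line; dashed lines mark 0.32 in either direction. Genes lie on both sides of 0 in each role, with BMPR2, SMAD2, CDKN2B and SNAI2 beyond the upper line and JUNB beyond the lower line with both forms.

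Immediate early genes, which respond quickly to handling and stress, were read beside the members, and 12 of them passed the filter. With WT, 2 of the 12 were at least 0.32 higher (JUN, ATF3) and 1 lower (NR4A1, at -0.36), beside 9.92% and 7.12% of all genes. With delta72, 3 were higher (JUN, ATF3 and KLF6, the last at 0.34) and 0 lower, beside 7.52% and 4.72%. By any amount, 3 of the 12 were higher and 9 lower with WT, beside 48% and 51.7% of all genes. With delta72 6 were higher and 6 lower, beside 49.7% and 49.8%. Between the forms 8 of the 12 were higher with delta72, beside 50.4% of all genes. Of these, 2 were higher by at least 0.32 (IER3 and NR4A1, both at 0.34), beside 1.55% of all genes. The median between the forms was 0.17 beside 0.0013. JUN read 8.69, 9.29 and 9.55 and ATF3, a stress-induced factor known to act with SMAD3 on ID1, read 10.21, 10.68 and 10.90 on control, WT and delta72. The part of these genes in the member values was not tested.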

How the data were processed

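Total RNA (100 ng) was labelled with biotin as cRNA, per the labels' protocols. Affymetrix Expression Console and Partek are the tools in the submitters' processing notes. Which normalization and background correction they applied is not given in the sources used here. Deposited by the authors was 1 value per probe set and array, taken here as a log2 intensity because all lay between 2.07 and 14.56. Array medians were 5.95, 5.93 and 5.94. How far the authors' processing compressed dim probe sets is unknown, and the number of arrays, 1 per condition, limits the precision.

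Of 49293 non-control probe sets, 44988 had 1 gene symbol in the platform annotation, 1832 several and 2473 were not listed. Of the 44988, 44961 probe sets had an Entrez identifier that was found in RefSeq (GRCh38.p14), and 0 symbols needed updating. Computed here in Python 3.11.15 with pandas 2.3.3 were log2 differences between arrays, counts past log2 differences of 0.32 and 0.585 (1.5-fold), medians, and the SD of a gene's difference over all its probe sets, which holds no biological error. The counting was checked on simulated data with planted changes larger than those of the members, so the check does not bear on calls of their size. The members, lists and folds were chosen with earlier results of these data known. Named genes were all members, the listed pathway genes past 0.32 and above the filter, the listed gene with the largest difference in each role and the 3 genes nearest to each moving member. CDKN1A, TGFB1, SMAD3, KRT5, CDH1, SFN, DSG3, CD68, CD3E, PTPRC, PECAM1, VWF, KDR, CDH5, TEK, JUN, ATF3, KLF6, NR4A1 and IER3 were named outside that rule. Alternatives were a common median, quantile normalization, lowess correction, the median over probe sets, leaving out _s_at and _x_at probe sets, no filter and the 60th percentile filter. A median over a gene's probe sets was taken of their levels on each array, before the arrays were subtracted.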

Additional observations from a re-analysis of the deposited data

How the results depend on the processing

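With 1 array per condition no replicate could be left out, and no paired analysis was possible because each condition has 1 sample. The directions of ID1, SKIL, TGFBI and TGFBR1 against control held under every alternative that kept the gene. Those that kept TGFBR1 all read its brightest probe set, so they could not test its direction on the others. With the median over probe sets SMAD6, SMAD7 and TGFBR1 were below the filter. Without _s_at and _x_at probe sets TGFBR1 was below it and TGFBR2 had none left. SMAD6 with WT was 0.04 as deposited and -0.0019 with a common median.

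The count of members at least 0.32 higher went from 2 to 1 with WT under the median over probe sets and without _s_at and _x_at probe sets, and from 3 to 1 with delta72 without them. The count at least 0.32 lower went from 2 to 1 with the 60th percentile filter and with the median over probe sets for both forms, and after lowess correction for delta72. At 1.5-fold with WT, members higher went from 1 to 0 with a common median and with quantile normalization, and members lower from 1 to 2 with a common median. The member median with delta72, 0.04, was 0.22 with the 60th percentile filter, 0.10 without a filter and -0.032 without _s_at and _x_at probe sets. The pathway median with WT was -0.12 with a common median and -0.10 over probe sets. With delta72 it was -0.050 with a common median, -0.072 over probe sets, -0.046 with quantile normalization and 0.012 without _s_at and _x_at probe sets, and between the forms 0.078 without those. The count at least 0.32 higher with delta72 also went from 3 to 2 with a common median, after lowess correction and over probe sets. Without a filter, which let ID2 in, it was 4, and with WT it was 3. The rest of the member counts did not change, and the rest of the medians kept their values within the limits set. The cause of these changes was not tested beyond the genes that each filter removed.

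Among all genes at 0.32, no filter gave 1465 lower in place of 871 with WT, 1022 in place of 577 with delta72, and 519 higher and 322 lower between the forms in place of 190 and 120, where the 60th percentile filter gave 86 and 53. At 1.5-fold between the forms, in place of 22 higher and 5 lower, there were 40 and 16 without a filter, 11 and 0 with the 60th percentile filter and 15 and 3 over probe sets.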
